A study of Mus musculus with 36 samples.

Results

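Secondary mouse embryonic fibroblasts (MEFs) carrying the transgenes labelled KOS-ZERT2 were compared on day 6 with doxycycline and without it, in the absence of tamoxifen. The comparison rests on 4 of the 36 arrays of the series, 2 of cultures labelled Dox+Tmx- and 2 of cultures labelled Dox-Tmx-, chosen by their labels and read across all 42006 probes that are not controls. KOS stands for the reprogramming factors Klf4, Oct4 and Sox2, and ZERT2 for Zscan4 fused to a receptor domain that tamoxifen compounds bind. All of these cells were second-generation MEFs of 1 clone on a hybrid C57Bl/6 x 129 background, grown on gelatin in ES cell medium with LIF, and both groups carried the same transgenes. Doxycycline was given at 1.5 µg/ml, and neither group received tamoxifen. Other groups serve below as points of comparison: the same 2 treatments on days 1 and 3, the same 2 treatments with 200 nM tamoxifen on day 6, induced pluripotent stem (iPS) cells, embryonic stem (ES) cells and wild MEFs without tamoxifen, each with 2 arrays. The titles of the iPS cells also name the KOS-ZERT2 transgenes, and those of the ES cells and wild MEFs do not.

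Forced expression of these factors in fibroblasts starts reprogramming towards the ES cell state. In general, fibroblast genes are switched off and epithelial genes come on early, while the cells' own pluripotency network is activated late and in few cells. In secondary MEFs every cell carries the same inserted transgenes, and doxycycline turns on the KOS factors together. An array of a whole culture averages over its cells, so fewer cells with a transcript and less of it per cell cannot be told apart.

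On each array the sample was labelled with Cy3 and set against the same Cy5 reference, RNA of cultured mouse cell lines combined with ES cell RNA. Values are log2 ratios of sample to reference, so a ratio of 0 means the same brightness as the reference. In the sample channel, 73.7% and 75.8% of probes stood well above background on the Dox+Tmx- arrays, against 72% and 72.2% on the Dox-Tmx- arrays. With 2 arrays a group, precision is limited by their number. Replicates were close, with a median absolute difference between the 2 arrays of 0.0739 in Dox+Tmx- and 0.0678 in Dox-Tmx-. Nothing in the labels says whether replicates were grown separately, and the p-values below therefore reflect a spread that may be technical. The Dox+Tmx- arrays lay on 1 slide and the Dox-Tmx- arrays on another of the same scan day, and on day 6 the effects of slide and of doxycycline cannot be told apart. Over the 10 spike-in control sequences, with 32 spots each, the 2 groups differed by at most 0.053 on the log2 scale. The log2 ratios of these sequences all lay near 0, between -0.069 and 0.177 on the arrays compared. Whether their spots stood well above background is not given here. The small difference is therefore no check on the effect of slide. One array, Dox-Tmx- replicate 1, had 20 spots with an outlying local background in the reference channel, up to 15713, where the other 3 arrays reached at most 92.5, and therefore no local background was subtracted.

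The files name no genes, and most probes are given here by their identifier and sequence. The levels of Klf4, Oct4 and Sox2 could not be checked by name. Of 16 gene lists and a list of cell type markers, 1 member, Acta2, could be tied to a probe, so the identity of the cells was not checked by marker genes but only against the ES, iPS and MEF arrays. The 60-base probes with the largest changes among those without a gene name are shown first, since most of the description turns on them. They were called on days 6 and 3 in the same direction, with no overlap between the day 6 groups.
Z00026928-1: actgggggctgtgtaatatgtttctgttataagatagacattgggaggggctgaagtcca
Z00074466-1: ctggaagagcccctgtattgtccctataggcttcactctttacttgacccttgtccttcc
Z00035949-1: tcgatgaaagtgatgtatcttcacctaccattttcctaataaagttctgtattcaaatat
Z00007756-1: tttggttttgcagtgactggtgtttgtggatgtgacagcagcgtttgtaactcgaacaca

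By day 6 the induced cultures differed from the uninduced ones at more than 50% of the measured transcripts, in both directions, and the largest differences exceeded 200-fold. At an adjusted p under 0.05 in limma, Dox+Tmx- cultures exceeded Dox-Tmx- cultures at 9805 (29.6%) of the 33099 probes that passed the filter and fell below them at 8750 (26.4%), together 56.1%. Most of these changes were under 2-fold. The median absolute log2 fold change over all probes, called or not, was 0.213. At least 2-fold changes were called for 2268 probes (6.85%) that rose and 1915 (5.79%) that fell. At least 4-fold changes were called for 916 (2.77%) and 556 (1.68%) probes, and at least 8-fold changes for 399 and 164. The median over all probes was 0.001, which the scaling within arrays sets near 0, so changes are relative to that centre. Of 33079 probes with values on all 4 arrays, the arrays of the 2 groups did not overlap at 12754 (38.6%) that were higher with doxycycline. At 12227 (37%) they did not overlap and were lower. With 2 arrays a group this is a weak criterion, met in each direction by more probes than were called.

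Probe Z00026928-1 had log2 ratios of 5.64 and 5.23 in Dox+Tmx-, against -2.72 and -2.8 in Dox-Tmx- cultures. It was thus well above the reference with doxycycline and well below it without, a 293-fold rise (log2 fold change 8.2, SE 0.122, adjusted p = 2.84e-25 in limma). With doxycycline it also stood above ES cells, whose ratios were 2.04 and 1.71, and iPS cells, with 2.05 and 2.11. Probe Z00074466-1 had ratios of 4.62 and 4.68 in Dox+Tmx-, against -3.18 and -3.07 in Dox-Tmx- cultures, a 219-fold rise (log2 fold change 7.78, SE 0.095, adjusted p = 7.03e-27 in limma). Unlike the first, it was low in the pluripotent cells too, with -2.35 and -2.41 in iPS cells and -1.85 and -1.79 in ES cells.

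Probe Z00035949-1 had ratios of -5.18 and -5.19 in Dox+Tmx-, against 2.89 and 3.06 in Dox-Tmx- cultures, a 285-fold fall (log2 fold change -8.16, SE 0.074, adjusted p = 4.83e-29 in limma). The induced cultures lay below ES cells, at -4.41 and -4.47, while the uninduced ones lay above wild MEFs, at 2.02 and 2.17. Probe Z00007756-1 had ratios of -2.85 and -3.15 in Dox+Tmx-, against 4.24 and 4.27 in Dox-Tmx- cultures, a 152-fold fall (log2 fold change -7.25, SE 0.083, adjusted p = 2.41e-27 in limma). Here too the induced cultures lay below ES cells, which had 0.70 and 0.74.

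**Figure D1:**
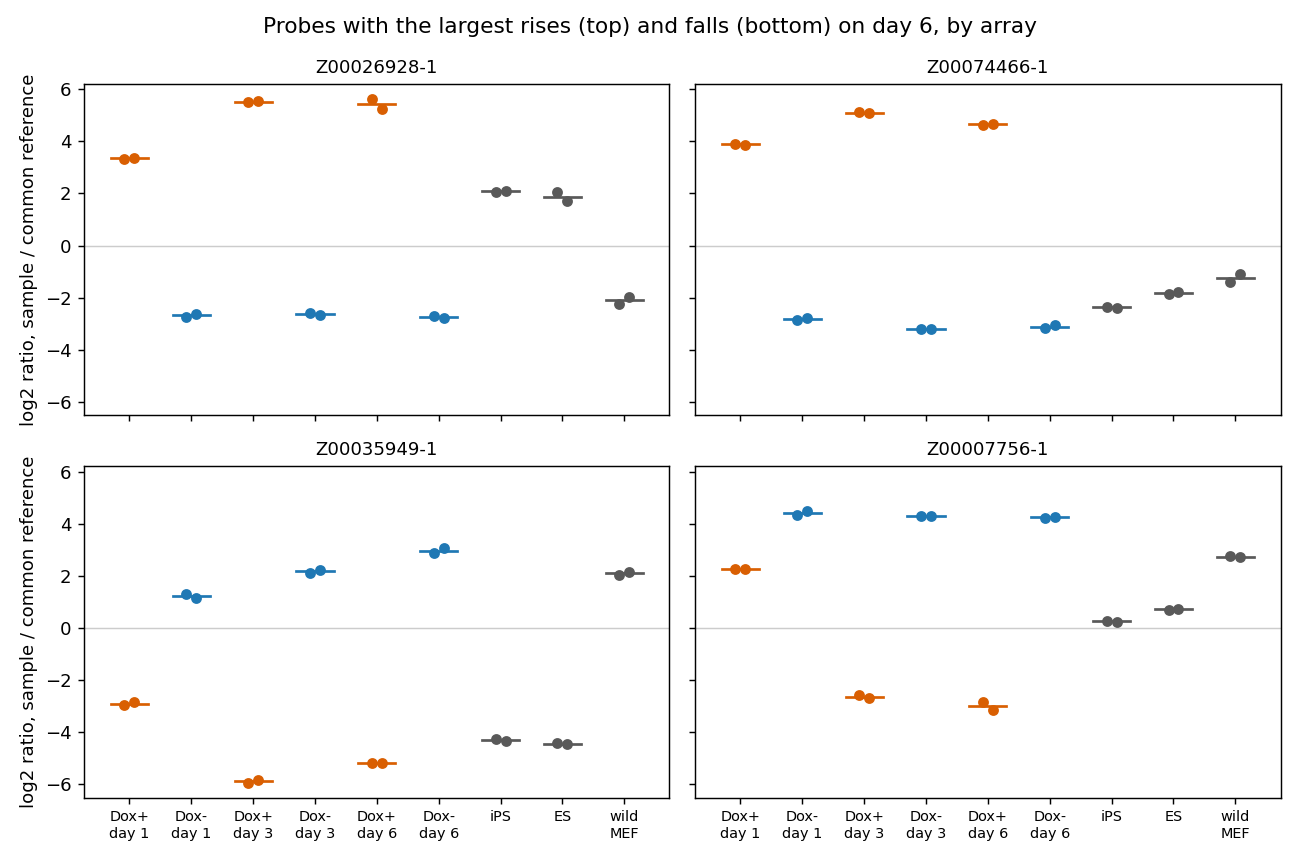
Log2 ratio of sample to common reference on each array (points, with the group mean as a line) for the 2 probes that rose most and the 2 that fell most on day 6. On day 6 the Dox+ arrays of Z00026928-1 lie at 5.64 and 5.23, above every iPS, ES and wild MEF array, and those of Z00035949-1 at -5.18 and -5.19, below every one of them.

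Many transcripts crossed the limit of detection. On day 6, 1274 probes were well above background on both Dox+Tmx- arrays and on neither Dox-Tmx- array, and 430 showed the reverse. Of these, 967 and 369 were also called in that direction, where 29.6% of all probes were called higher and 26.4% lower. Detection and calls come from the same 4 arrays, so the calls are no separate support. Another 28814 probes were well above background on all 4 arrays. Among all 33099 probes, 3.63% had at least 4-fold more signal in ES cells than in untreated wild MEFs and 7.61% at least 4-fold less. The corresponding numbers were 80 and 0 of the 1274 probes detected with doxycycline alone, and 4 and 12 of the 430 detected without it alone. Since the 1274 were chosen as undetected in uninduced fibroblasts, the 0 follows largely from that choice.

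Some probes share part of their sequence, which gives a second reading of the same stretch of transcript on the same arrays. Among the tested probes, 764 pairs overlapped by at least 20 bases, 22 of them with identical sequences. Their log2 fold changes on day 6 differed by a median of 0.045, with a Pearson correlation of 0.981 over the 764 pairs, whose probes share arrays and labelled RNA. Both members were called in 435 pairs, in the same direction in 434. The opposite pair lay in H4c8, a histone H4 gene with near-identical copies, at 0.185 for Z00038251-1 and -0.221 for Z00074088-1, so its direction is uncertain. In 7 pairs the changes differed by more than 1, at most by 1.52. The pair of distinct sequences with the largest rise and the pair with the largest fall are shown with their shared bases in capitals.
Z00044291-1: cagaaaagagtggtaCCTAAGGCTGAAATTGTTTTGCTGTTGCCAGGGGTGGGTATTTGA
Z00003693-1: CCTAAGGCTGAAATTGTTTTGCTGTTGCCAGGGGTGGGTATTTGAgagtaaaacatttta
Z00026201-1: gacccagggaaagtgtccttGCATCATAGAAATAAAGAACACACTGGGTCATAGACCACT
Z00063425-1: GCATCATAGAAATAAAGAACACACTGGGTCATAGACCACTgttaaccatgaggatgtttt

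Probe Z00044291-1 had ratios of 1.38 and 1.37 in Dox+Tmx-, against -4.32 and -4.25 in Dox-Tmx- cultures, and its partner Z00003693-1 had 1.40 and 1.40, against -4.50 and -4.44. Both readings gave a rise of over 50-fold, 50.7-fold for the first and 58.5-fold for the second. With doxycycline this transcript exceeded its level in ES cells, where Z00044291-1 had 0.33 and 0.39. Probe Z00026201-1 had ratios of -2.94 and -3.13 in Dox+Tmx-, against 0.84 and 0.79 in Dox-Tmx- cultures, and its partner Z00063425-1 had -2.55 and -2.76, against 0.77 and 0.77. The fall was 14.4-fold by the first and 10.8-fold by the second. This transcript was not well above background on either ES or iPS array.

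**Figure D2:**
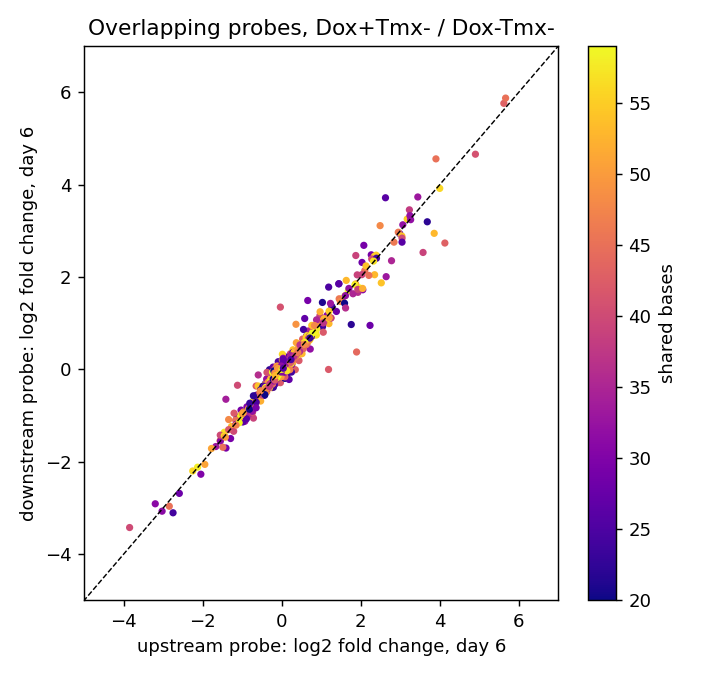
Day 6 log2 fold changes (Dox+Tmx- over Dox-Tmx-) of the downstream probe (vertical) against the upstream probe (horizontal) of each overlapping pair of distinct sequences, coloured by the number of shared bases. The points follow the dashed line of equal values, from the falling pair near -3.85 and -3.43 to the rising pair near 5.66 and 5.87, with 7 pairs more than 1 away from equal values.

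To place the induced cultures between fibroblasts and pluripotent cells, probes were listed as ES-high (1202 probes, 3.63%) or MEF-high (2519 probes, 7.61%) where ES cells and untreated wild MEFs differed by at least 4-fold at an adjusted p under 0.05. No array of the day 6 comparison entered these lists. Of the 1202 ES-high probes, 742 (61.7%) rose and 136 (11.3%) fell with doxycycline on day 6 in limma, against 29.6% and 26.4% of all probes. The median log2 fold change was 0.40, against 0.001 over all probes, with quartiles of 0.01 and 1.28. With quantile scaling, under which the list itself held 1995 probes, 1030 rose and 348 fell and the median was 0.21, and with local background subtracted the median was 0.24. At least 2-fold rises were called for 371 (30.9%), against 6.85% of all probes. Of the 2519 MEF-high probes, 1645 (65.3%) fell and 525 (20.8%) rose, with a median of -0.58, and with quantile scaling 340 of then 2082 members rose. At least 2-fold falls were called for 932 (37%), against 5.79% of all probes.

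The 2 arrays of each group agreed closely on these lists. The median log2 ratio of the ES-high probes was -1.33 and -1.35 on the Dox+Tmx- arrays, against -2.0 and -1.99 on the Dox-Tmx- arrays. ES cells stood at 1.12 and 1.11 and iPS cells at 1.06 and 1.09, so the induced cultures lay far closer to the uninduced ones than to either. The median of the MEF-high probes was 0.55 and 0.52 on the Dox+Tmx- arrays, against 1.09 and 1.11 on the Dox-Tmx- arrays, with wild MEFs at 1.21 and 1.23 and iPS cells at -1.88 and -1.90. On day 3 this median was 0.40 and 0.41 with doxycycline, against 0.79 and 0.79 without. On day 1 it was 0.39 and 0.38, against 0.51 and 0.45. It was thus no lower on day 6 than before in induced cultures, and higher in uninduced ones. The ES-high median was -1.12 and -1.13 on day 3 with doxycycline, against -1.86 and -1.84 without. On day 1 it was -1.39 and -1.44, against -1.66 and -1.61. The days lay on different slides, and causes were not tested. Set directly against iPS cells, the induced cultures were lower at 1091 ES-high probes (90.8%, against 33.2% of all probes) and higher at 2349 MEF-high probes (93.3%, against 41.8% of all probes). The median difference from iPS cells was -2.37 for the ES-high and 2.33 for the MEF-high probes. This comparison uses the same Dox+Tmx- arrays as the doxycycline effect, and the iPS and ES arrays lay on other slides.

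**Figure D3:**
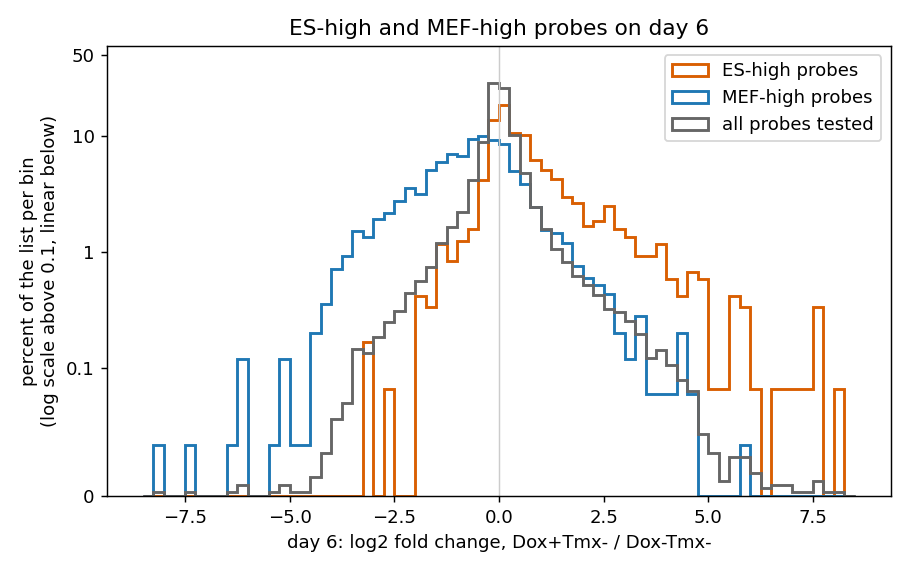
Distribution of the day 6 log2 fold change (Dox+Tmx- over Dox-Tmx-, horizontal) in ES-high probes, MEF-high probes and all probes tested, as percent of each list per bin (vertical, log scale above 0.1). The ES-high probes reach furthest to the right, with a median of 0.40, and the MEF-high probes furthest to the left, with a median of -0.58, while both lists have members on either side.

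Members of both lists also moved the other way. The ES-high and MEF-high probes that went furthest against the direction of their list are shown as examples, chosen as extremes.
Z00013525-1: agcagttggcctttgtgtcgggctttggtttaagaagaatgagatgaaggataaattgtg
Z00018673-1: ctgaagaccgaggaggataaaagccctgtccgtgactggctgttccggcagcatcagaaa

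The ES-high probe Z00013525-1 had ratios of -3.99 and -4.00 in Dox+Tmx-, against -0.91 and -0.94 in Dox-Tmx- cultures, an 8.41-fold fall (log2 fold change -3.07, SE 0.068, adjusted p = 5.39e-22 in limma). ES cells had 1.55 and 1.56 and wild MEFs -2.42 and -2.36, so the induced cultures lay below both. The MEF-high probe Z00018673-1 had ratios of 3.25 and 3.33 in Dox+Tmx-, against -2.46 and -2.62 in Dox-Tmx- cultures, a 56.8-fold rise (log2 fold change 5.83, SE 0.099, adjusted p = 3.47e-24 in limma). Wild MEFs had -1.85 and -1.91 and ES cells -4.06 and -4.02, so the induced cultures lay above both.

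Read the other way, most of the strong rises were not at ES-high probes, though these held a larger share of the rises than of all probes. Of the 916 probes that rose at least 4-fold, 191 (20.9%) were ES-high, 68 (7.42%) were MEF-high, and 472 (51.5%) differed by less than 2-fold between ES cells and wild MEFs or were not called there. Another 119 (13.0%, against 8.43% of all probes) were 2- to 4-fold higher in ES cells, and 66 (7.21%, against 9.99%) in MEFs. Over all probes the shares of ES-high, MEF-high and less than 2-fold or uncalled probes were 3.63%, 7.61% and 70.3%. Of the 556 probes that fell at least 4-fold, 401 (72.1%) were MEF-high and 3 (0.54%) ES-high, and 83 (14.9%) were in the class with less than 2-fold or no called difference. Base composition of the probes was alike, with a median G and C content of 45% for probes that rose at least 2-fold, 43.3% for those that fell and 45% over all.

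Named genes gave a small sample of the response. By matching probe sequences to RefSeq promoter windows of mouse build GRCm38.p6, 235 probes were tied to 231 genes, 127 over the first bases of a transcript and 108 inside the span of a gene on its strand, where exon and intron were not told apart. Of these, 167 passed the filter, and on day 6 25 rose, 29 fell and 113 were not called in limma. The share called was 32.3%, against 56.1% of all probes. At least 2-fold, 4 rose and 5 fell. The probes inside gene spans among these 9 are shown, as the sequences behind the named changes.
Fam180a: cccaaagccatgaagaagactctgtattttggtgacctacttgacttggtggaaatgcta
4930523C07Rik: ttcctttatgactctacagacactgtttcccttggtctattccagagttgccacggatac
Abhd6: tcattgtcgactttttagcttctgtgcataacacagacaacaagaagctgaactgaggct
Podxl2: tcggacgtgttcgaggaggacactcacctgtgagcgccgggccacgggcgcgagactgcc
Bcl11a: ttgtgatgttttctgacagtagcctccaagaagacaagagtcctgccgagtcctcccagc
Gm1673: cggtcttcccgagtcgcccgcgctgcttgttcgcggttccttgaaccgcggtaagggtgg

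The probe of Fam180a (chr6:35312995-35313054, minus strand) had ratios of 2.96 and 2.81 in Dox+Tmx-, against 0.31 and 0.51 in Dox-Tmx- cultures, a 5.56-fold rise (log2 fold change 2.48, SE 0.104, adjusted p = 2.04e-16 in limma). Its log2 difference of ES cells from wild MEFs was -3.58, so its rise ran away from the ES level. The probe of Abhd6 (chr14:8055589-8055648, plus strand), a hydrolase of monoacylglycerols, had 1.24 and 1.26 in Dox+Tmx-, against 0.03 and -0.04 in Dox-Tmx- cultures, a 2.38-fold rise. The probe of 4930523C07Rik (chr1:160077979-160078038, plus strand) had 1.39 and 1.37 in Dox+Tmx-, against 0.10 and 0.11 in Dox-Tmx- cultures, a 2.43-fold rise. Crxos, a homeobox gene lying opposite Crx, had 0.87 and 0.78 in Dox+Tmx-, against -0.39 and -0.45 in Dox-Tmx- cultures, a 2.37-fold rise, by a probe of which 47 bases matched the first bases of its transcript (chr7:15896127-15896173). The day 6 groups did not overlap in any of the 4 genes, which the rule for naming genes required.

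Among the falling genes, Bcl11a, a zinc finger transcription factor known for silencing fetal globin genes in red cells, had ratios of -1.14 and -1.21 in Dox+Tmx-, against 0.14 and 0.23 in Dox-Tmx- cultures (chr11:24172868-24172927, plus strand). This is a 2.57-fold fall (log2 fold change -1.36, SE 0.053, adjusted p = 4.1e-17 in limma). Podxl2, a sialomucin of the cell surface, had 0.12 and 0.24 in Dox+Tmx-, against 1.55 and 1.46 in Dox-Tmx- cultures, a 2.50-fold fall (chr6:88842740-88842799, minus strand). Gm1673 had -1.08 and -1.02 in Dox+Tmx-, against 0.40 and 0.36 in Dox-Tmx- cultures, a 2.69-fold fall (chr5:33983515-33983574, plus strand). Gm3194 fell 2.82-fold, with a match of 31 bases that near copies of the gene may share. Cyba, which encodes a membrane subunit of the NADPH oxidase, had -0.23 and -0.13 in Dox+Tmx-, against 0.60 and 1.22 in Dox-Tmx- cultures, a 2.13-fold fall. The uninduced arrays of Cyba differed more from each other than those of the other genes, and its SE was 0.157.

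Acta2, the smooth muscle actin that marks contractile fibroblasts, was the 1 gene of the lists that could be read. It had ratios of -0.14 and 0.12 in Dox+Tmx-, against 0.73 and 1.01 in Dox-Tmx- cultures, with no overlap. The fall was 1.84-fold (log2 fold change -0.88, SE 0.095, adjusted p = 1.68e-08 in limma), and the change was -0.46, -0.62 and -0.88 on days 1, 3 and 6. Its change on day 6 differed from that on day 1 by -0.43 (adjusted p = 0.0124 in limma). The difference from day 3, -0.26, was not called (adjusted p = 0.165 in limma). The probe reached over the first bases of the transcript (chr19:34255324-34255381).

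Smaller changes were called at 2 paralogs of the Unc13 family, which prime synaptic vesicles for release, in opposite directions. Unc13a had 0.29 and 0.32 in Dox+Tmx-, against -0.25 and -0.14 in Dox-Tmx- cultures (log2 fold change 0.50, SE 0.066, adjusted p = 3.7e-07 in limma). Unc13b had -0.19 and -0.27 in Dox+Tmx-, against 0.21 and 0.20 in Dox-Tmx- cultures (log2 fold change -0.44, SE 0.066, adjusted p = 3.63e-06 in limma). The BTB zinc finger genes Zbtb22 and Zbtb8a rose by 0.48 and 0.40 on the log2 scale, and Ttll3, a tubulin glycylase, fell by 0.54. Ciao2b, of cytosolic iron-sulfur assembly, and Arl6, a GTPase of the cilium, both fell by 0.42. In the cultures with tamoxifen the change of Arl6 was -0.04 (adjusted p = 0.692 in limma), with ratios of 0 and -0.07 in Dox+Tmx+, against 0.08 and -0.07 in Dox-Tmx+ cultures. Of the named genes called on day 6, 16 that rose and 21 that fell were also called in that direction on day 3, with no overlap of the day 6 groups. Among the 15 shown in each direction, 1700113H08Rik and Gm6882 were not well above background in Dox-Tmx- cultures and were at least 1.25-fold and at least 1.08-fold higher in Dox+Tmx- cultures.

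**Figure D4:**
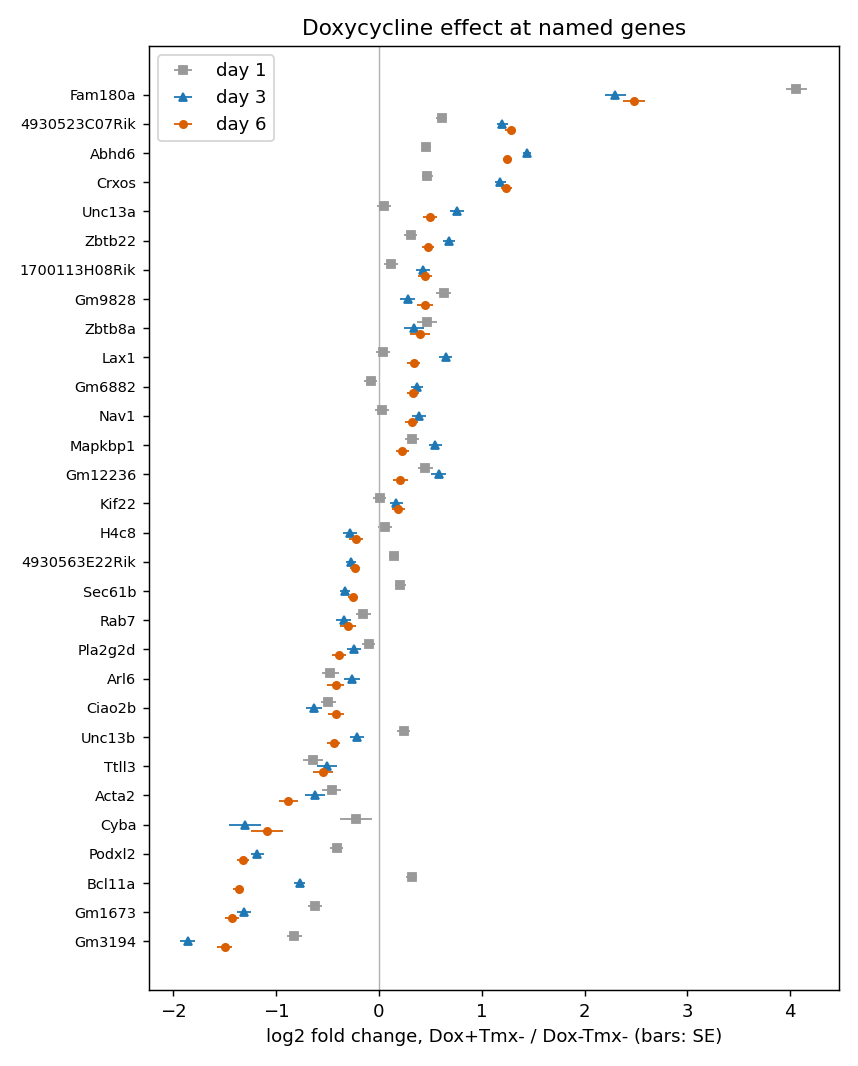
Log2 fold change of Dox+Tmx- over Dox-Tmx- cultures (horizontal, with SE bars) on days 1, 3 and 6 for the 15 rising and 15 falling named genes with the largest day 6 change that were called in the same direction on day 3. Fam180a is highest on day 1, at 4.06, and Bcl11a is above 0 on day 1, at 0.32, and at -1.36 on day 6. H4c8 is drawn by 1 of its 2 probes, and the other was called in the opposite direction.

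The day 3 cultures, on other slides, gave a separate reading of the doxycycline effect. Over the 33099 probes the day 6 and day 3 log2 fold changes had a Pearson correlation of 0.891, and the day 6 and day 1 changes 0.642, as a description of groups that share no arrays. The day 1 arrays, also on other slides, were scanned on a different day from those of days 3 and 6. At least 2-fold rises were called for 2268 probes on day 6 and 2695 (8.14%) on day 3, and 1865 were in both lists, which is 82.2% of the day 6 list and 69.2% of the day 3 list. At least 2-fold falls were called for 1915 probes on day 6 and 1490 (4.5%) on day 3, with 1156 in both, 60.4% of the day 6 list and 77.6% of the day 3 list. Of the day 6 rises of that size, 2235 were called higher on day 3 and 7 lower, and of the falls, 1770 were called lower and 42 higher, where 31.8% of all probes were called higher and 27.9% lower. On day 1, 1790 of the rises were called higher and 68 lower, and 1235 of the falls were called lower and 203 higher, against 24.2% and 23.6% of all probes.

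**Figure D5:**
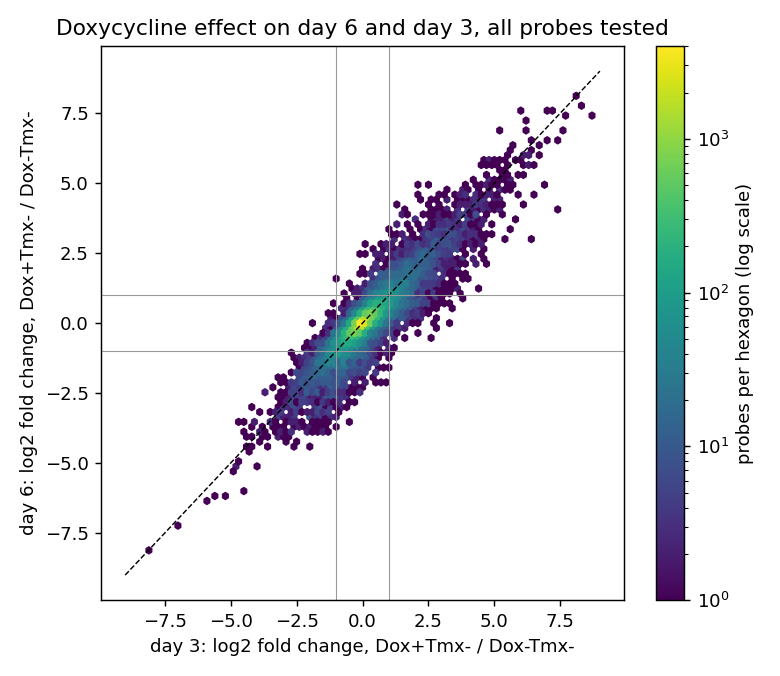
Log2 fold change of Dox+Tmx- over Dox-Tmx- cultures on day 6 (vertical) and day 3 (horizontal) for the 33099 probes tested, coloured by the number of probes per hexagon on a log scale, with lines at 2-fold and the diagonal. The probes follow the diagonal from -8.16 to 8.2 on day 6, with a correlation of 0.891.

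The doxycycline effect itself differed between days 6 and 3 at 9546 probes (28.8%), where each of the 4 groups lay on a different slide, so that slide and effect cannot be told apart here either. It was higher on day 6 at 4025 probes (12.2%) and lower at 5521 (16.7%) in limma, a balance that turned to 4848 higher and 4356 lower with quantile scaling between arrays. These differences are signed, so a lower effect can be a weaker rise or a deeper fall, and a higher effect the reverse. Differences of at least 2-fold were called for 229 probes (0.692%) with a higher and 889 (2.69%) with a lower effect on day 6. In the 229, the Dox+ cultures moved more between the days than the Dox- cultures at 193 probes, with median changes of 1.14 and -0.06. In the 889, the Dox+ cultures moved more at 418 probes and the Dox- cultures at 471, with median changes of -0.61 with doxycycline and 0.75 without. MEF-high probes made up 379 (42.6%) of the 889 and 47 (20.5%) of the 229, against 7.61% of all probes. ES-high probes made up 45 (5.06%) of the 889 and 44 (19.2%) of the 229, against 3.63% of all probes. The 2 probes with the largest fitted difference in each direction are shown, the first of which was not well above background without doxycycline on either day.
Z00056592-1: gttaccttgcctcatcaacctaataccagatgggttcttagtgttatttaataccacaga
Z00075510-1: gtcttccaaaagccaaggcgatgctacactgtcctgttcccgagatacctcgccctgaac
Z00040660-1: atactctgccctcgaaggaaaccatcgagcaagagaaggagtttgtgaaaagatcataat
Z00036124-1: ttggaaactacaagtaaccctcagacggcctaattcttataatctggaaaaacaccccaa

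Probe Z00056592-1 had day 6 ratios of 4.23 and 4.18 in Dox+Tmx-, against -0.10 and -0.14 in Dox-Tmx- cultures, where it was not well above background, so it was at least 15.2-fold higher with doxycycline. This bound sets the mean over both bright arrays against, on each dim array, the higher of the probe's own signal and the lowest signal well above background. On day 3 its ratios were 1.08 and 1.15 in Dox+Tmx-, against -0.23 and -0.13 in Dox-Tmx- cultures, again not well above background, and the induced cultures, detected on both days, rose by 3.08 between them. Probe Z00075510-1 had 4.83 and 4.63 in Dox+Tmx- on day 6, against -0.16 and -0.19 in Dox-Tmx- cultures, and 1.97 and 1.90 in Dox+Tmx- on day 3, against -0.11 and -0.08. Its effect was larger on day 6 by 2.87 (SE 0.096, adjusted p = 3.51e-16 in limma). Both transcripts were near the reference in ES cells, with 0.23 and 0.03 for the first and 0.46 and 0.27 for the second, far below the induced cultures of day 6.

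Probe Z00040660-1 had day 6 ratios of 3.89 and 3.60 in Dox+Tmx-, against -0.23 and -0.29 in Dox-Tmx- cultures, and day 3 ratios of 7.10 and 7.12 in Dox+Tmx-, against -0.45 and -0.30. The induced cultures fell between the days while the ratios of the uninduced ones stayed near 0. Without doxycycline the probe was well above background on 1 of the 2 arrays of day 3 and on both of day 6. The effect on day 6 minus that on day 3 was fitted at -3.48 (adjusted p = 7.24e-17 in limma), and its size is uncertain. Probe Z00036124-1, a MEF-high probe, had day 6 ratios of 3.10 and 3.06 in Dox+Tmx-, against 0.10 and 0.24 in Dox-Tmx- cultures, and day 3 ratios of 3.88 and 3.98 in Dox+Tmx-, against -2.45 and -2.46. Here the uninduced cultures rose by 2.62 between the days (adjusted p = 8.22e-19 in limma), while the induced cultures changed by -0.85. More widely, 330 probes (0.997%) rose and 400 (1.21%) fell at least 2-fold between day 3 and day 6 in Dox+Tmx- cultures, against 530 (1.6%) and 67 (0.202%) in Dox-Tmx- cultures. Compared with day 1, the doxycycline effect was higher on day 6 at 7461 probes (22.5%) and lower at 6860 (20.7%). The 4 groups of this comparison again lay on a slide each, and the day 1 arrays were scanned on another day. Slide, scan day and effect cannot be told apart in it.

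The cultures with tamoxifen gave other arrays of the same 2 day 6 slides. Doxycycline and slide coincide in them too, so agreement between the 2 comparisons cannot tell the effects of slide and doxycycline apart. Dox+Tmx+ against Dox-Tmx+ cultures had 10562 probes (31.9%) called higher and 9631 (29.1%) called lower in limma. Of the 2268 probes that rose at least 2-fold without tamoxifen, 2265 were called higher with it and 0 lower, and of the 1915 that fell, 1905 were called lower and 0 higher. The at least 2-fold rises in both comparisons numbered 2165, which is 95.5% of the list without tamoxifen and 81.1% of the list with it, and the falls numbered 1775, 92.7% and 87.2%. Over all probes, such rises with tamoxifen made up 8.07% and such falls 6.15%. The doxycycline effect without tamoxifen exceeded that with it at 387 probes (1.17%) and was lower at 1160 (3.5%), at least 2-fold at 4 (0.0121%) and 65 (0.196%). Here too the difference is signed, so a lower effect can be a weaker rise or a deeper fall. Among the ES-high probes, 742 rose without tamoxifen and 815 with it, with medians of 0.40 and 0.59, and no test of that difference was made.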

How the data were processed

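RNA was measured on 36 2-colour Agilent arrays, with samples in Cy3 and a common reference in Cy5, per the labels. Per the file headers, the authors quantified spots in Feature Extraction (Agilent), version 9.5.1.1. The mean intensity and local background intensity per spot were used as deposited, not normalized. The deposited log10 ratio of that software and the deposited series matrix, log10 values read as sample brightness, with centring not given in the sources used here, served as alternatives.

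Mean signals were corrected by normexp (offset 50) without local background, then by loess within arrays. Probes well above background on both arrays of at least 1 of 18 groups were kept (33099 of 42006). In limma 3.58.1 (R 4.3.3) all 36 arrays were fitted with 1 mean per group, sharing 1 spread per probe (18 residual and 4.92 prior degrees of freedom), two-sided, with Benjamini-Hochberg adjustment over all probes per comparison. The fit was tested on simulated data. The log2 fold changes are of normalized ratios, and the offset understates those of dim probes.

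Probes named are the 15 rising and 15 falling named genes with the largest change called on days 6 and 3, and, without a gene name, extremes of each comparison. The rule allowed 2 probes in each direction without a name, and the overlapping pairs and the probes against their list's direction were added after values were seen. Probe sequences are from the deposited files and the windows from RefSeq. The members and lists were chosen with earlier results of these data known. Replicate numbers did not pair the arrays: deviations of same-numbered arrays correlated at 0.113 on day 6, -0.383 on day 3 and -0.32 on day 1.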

Additional observations from a re-analysis of the deposited data

Results flagged for a closer look

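The doxycycline effect differed between conditions by limma's test of the difference itself. The differences are signed, so an effect below another can be a weaker rise or a deeper fall. Day 6 exceeded day 3 at 4025 probes and was below it at 5521. Day 6 exceeded day 1 at 7461 probes and was below it at 6860. On day 6 the effect without tamoxifen exceeded that with it at 387 probes and was below it at 1160.

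Among named genes, the effect on day 6 minus that on day 3 was -0.59 on the log2 scale for Bcl11a, -0.36 for Gm12236, -0.32 for Mapkbp1, -0.31 for Lax1, -0.25 for Unc13a, -0.18 for Abhd6 and 0.37 for Gm3194. The fall of Bcl11a had grown by day 6, and that of Gm3194 had shrunk.

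Among probes without a gene name, the same difference was fitted at 3.03 for Z00056592-1, which was not well above background without doxycycline on either day, so that this value is not a measured size. It was 2.87 for Z00075510-1, 1.09 for Z00003693-1, 1.07 for its overlapping partner Z00044291-1 and 0.83 for Z00018673-1. It was -3.48 for Z00040660-1, -3.47 for Z00036124-1, -1.68 for Z00026201-1, -1.45 for its overlapping partner Z00063425-1, -0.54 for Z00074466-1, -0.48 for Z00013525-1 and -0.32 for Z00007756-1.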

How the results depend on the processing

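Alternatives to the background correction, values, scaling, filter, arrays fitted and replicates left 205 counts and list medians within 1.5 times or the replicate spread and moved 29, with no median reversed in sign. The causes of the following shifts were not tested, except that the series matrix holds fewer probes. With the series matrix, 6145 probes rose on day 6, 3363 had a lower effect on day 6 than on day 3, 4811 a higher effect than on day 1, and 6165 rose beside tamoxifen. With local background subtracted, 2519 probes had a higher effect on day 6 than on day 3. With only the arrays compared, 6246 fell beside tamoxifen. ES-high probes that rose or fell numbered 1529 and 328 with Feature Extraction's ratio, and 2105 and 498 when listed at 2-fold. ES-high probes that fell numbered 348 with quantile scaling and 234 with the series matrix. MEF-high probes that rose numbered 340 with quantile scaling, and those that rose or fell 1404 and 3282 when listed at 2-fold. The ES-high median was 0.21 with quantile scaling and also when listed at 2-fold, 0.24 with local background subtracted, 0.42 with Feature Extraction's ratio, 0.43 with no background correction, 0.47 with the series matrix and 0.49 with the filter within the 2 groups. The MEF-high median was -0.30 when listed at 2-fold, -0.55 with local background subtracted, -0.65 with Feature Extraction's ratio and with the series matrix, and -0.72 with quantile scaling. Leaving out each array gave 8733 to 9039 rises and 7707 to 8008 falls on day 6, and ES-high medians of 0.40 to 0.42.

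Kif22 was at -0.04 with local background subtracted, against 0.19. Kif22, H4c8, Gm12236, Mapkbp1 and 4930563E22Rik lost their call under at least 1 alternative, 13 times in all, and the other named genes and probes under none. With the replicate block, 9782 probes rose and 8741 fell on day 6, and no call of a named gene was lost. With a crossed replicate block, added after seeing the data, 10862 rose and 9885 fell beside tamoxifen. Without Dox+Tmx- replicate 2, the calls of Gm12236, Kif22 and H4c8 were lost, without Dox-Tmx- replicate 1 those of Mapkbp1, Gm12236 and Kif22, and without Dox-Tmx- replicate 2 that of H4c8. Having 2 arrays per group limits the precision, and dim probes have only bounds.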
